A study of Mus musculus with 8 samples.

Results

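Gene deserts are long stretches of chromosome that hold no protein-coding gene. Here they are the intervals of at least 500 kb on chromosomes 1 to 19 between neighbouring protein-coding genes of the RefSeq annotation of the mouse genome, cut into windows of 50 kb from their start. The rule found 585 deserts with a total length of 684.7 Mb, which gave 13406 whole windows. Of these, 13392 held the required 50 listed positions and 14 did not. The kept windows hold 5302130 of the 32026463 listed positions of these chromosomes (16.6%). Deserts were 500.5 to 4542 kb long with a median of 871.5 kb; 246 reached 1 Mb and 72 reached 2 Mb. No methylation value entered their choice. Each desert is named here by its flanking genes.

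Bisulfite treatment, which turns unmethylated cytosines into bases read as thymine, followed by sequencing of the whole genome gave the methylation of old and young muscle stem cells. The old cells came from 4 male C57BL/6 mice aged 22 months and the young cells from 4 aged 4 months, with 1 animal per library and no other treatment or allele named. The quiescent limb-muscle cells were sorted for VCAM and against the blood, endothelial and mesenchymal antigens CD45, CD31 and Sca1. The deposited table gives, for each cytosine position, 1 level and 1 dispersion (phi) per age and the authors' p-value and false discovery rate (FDR). Values for single animals and read counts are not part of it. Levels below therefore stand without an SD over animals, no difference between the ages could be set against the spread between animals, and the depth per position is unknown. SDs are given over windows, deserts or chromosomes, which all share the same 8 animals and are a description only. The less methylated ends of all 8 muscle stem cell marker genes looked at stood at 4.19% to 25.5% in old and 3.88% to 24.1% in young cells (Pax7 lowest, Cdh15 highest), while Ptprc and Pecam1, the genes of the CD45 and CD31 antigens, stood at 68.6% and 72.9% in old and 67.1% and 72.5% in young cells. Low levels also occurred at some genes of other cell types, such as Kdr at 11.9% in old and 12.7% in young cells, so these levels do not by themselves identify the cells.

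Most CpGs of a mammalian genome carry methyl groups, and the exceptions are CpG-rich gene starts and active regulatory sequence. Long intergenic stretches are poor in CpGs because methylated cytosine mutates readily to thymine. Deserts are not empty: those beside developmental regulators are known to hold distant enhancers, and they carry genes of long non-coding RNAs (lncRNAs), microRNAs and antibody or T-cell receptor gene segments. The 585 deserts hold 2364 lncRNA genes, 135 microRNA genes, 1886 pseudogenes and 341 V segments of the annotation, and 4 deserts hold none of these.

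The sequences that stood out in the deserts were those of microRNAs whose hairpins lay in sequence with low methylation. Mature forms were available for 6 hairpins that stood under 20% over both ages within 500 bases on each side. They are printed 5′ to 3′ from RefSeq for build GRCm38.p6, with the seed (bases 2 to 8, which pair with target messages) in capitals. The 10 mature sequences have 10 different seeds.
mmu-miR-9-5p: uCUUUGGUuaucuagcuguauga
mmu-miR-9-3p: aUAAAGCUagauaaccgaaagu
mmu-miR-9b-3p: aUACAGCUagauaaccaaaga
mmu-miR-137-5p: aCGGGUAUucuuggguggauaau
mmu-miR-137-3p: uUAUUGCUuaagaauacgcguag
mmu-miR-125b-5p: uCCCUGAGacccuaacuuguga
mmu-miR-125b-1-3p: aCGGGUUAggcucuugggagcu
mmu-miR-1247-5p: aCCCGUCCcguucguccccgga
mmu-miR-1247-3p: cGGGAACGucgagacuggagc
mmu-miR-1897-3p: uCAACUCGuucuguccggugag
The hairpin of Mir9-2, on the plus strand at chr13:83738814-83738885, and that of Gm51268, on the minus strand at chr13:83738821-83738876, overlap in the Mef2c-Tmem161b desert. Mir137 lies at chr3:118433857-118433929 on the plus strand in Snx7-Dpyd, Mir125b-1 at chr9:41581926-41582002 on the plus strand in Ubash3b-Gm40514, Mir1247 at chr12:110278048-110278129 on the minus strand in Rtl1-Dio3, and Mir1897 at chr3:34638464-34638542 on the plus strand in Dnajc19-Sox2. The last 2 named lie in the remainder of their desert beyond the last whole window.

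Promoters of desert lncRNA genes covered the whole range of levels. The 5 printed below are the lower of the measured promoters in the least methylated desert window and, on each side, the 2 with the widest gap between the ages. Each runs from 250 bases before to 50 after the gene's start in RefSeq, GRCm38.p6, read along the gene's own strand, with every CpG in capitals.
C130071C03Rik: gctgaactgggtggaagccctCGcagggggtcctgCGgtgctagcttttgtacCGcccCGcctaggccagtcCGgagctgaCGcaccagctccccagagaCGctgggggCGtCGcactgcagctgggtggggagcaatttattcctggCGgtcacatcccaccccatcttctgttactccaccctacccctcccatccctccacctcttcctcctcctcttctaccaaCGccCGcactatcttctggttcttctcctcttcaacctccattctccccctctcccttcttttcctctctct
Gm2516: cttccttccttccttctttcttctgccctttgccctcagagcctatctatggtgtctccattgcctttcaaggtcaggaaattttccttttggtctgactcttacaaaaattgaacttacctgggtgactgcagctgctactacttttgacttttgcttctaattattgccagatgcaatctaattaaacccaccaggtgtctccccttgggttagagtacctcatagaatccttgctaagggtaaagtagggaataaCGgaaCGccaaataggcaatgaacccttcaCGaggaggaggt
Gm32544: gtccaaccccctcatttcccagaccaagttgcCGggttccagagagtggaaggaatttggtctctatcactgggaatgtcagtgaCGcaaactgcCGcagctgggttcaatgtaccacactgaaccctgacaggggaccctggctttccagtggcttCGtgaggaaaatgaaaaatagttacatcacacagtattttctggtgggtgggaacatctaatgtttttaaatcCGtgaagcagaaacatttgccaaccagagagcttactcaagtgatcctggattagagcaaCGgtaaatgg
Gm36667: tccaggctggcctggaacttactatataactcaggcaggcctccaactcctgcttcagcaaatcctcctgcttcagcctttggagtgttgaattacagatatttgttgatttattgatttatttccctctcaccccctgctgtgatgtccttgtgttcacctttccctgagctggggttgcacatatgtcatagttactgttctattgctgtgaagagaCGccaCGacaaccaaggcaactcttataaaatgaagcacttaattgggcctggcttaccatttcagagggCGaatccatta
Gm31495: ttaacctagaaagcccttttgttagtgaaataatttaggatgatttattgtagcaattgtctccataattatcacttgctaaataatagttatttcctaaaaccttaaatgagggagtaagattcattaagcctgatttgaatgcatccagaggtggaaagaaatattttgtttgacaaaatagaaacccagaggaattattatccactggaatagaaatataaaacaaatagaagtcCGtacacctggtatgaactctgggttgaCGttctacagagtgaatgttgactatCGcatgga
C130071C03Rik lies at chr13:83721131-83721430 on the plus strand and holds 12 CpGs in this stretch; the other measured promoter of its window, that of Gm52046, stood at 6.24% in old and 6.95% in young cells. Gm2516 lies at chr8:50367862-50368161 on the plus strand in Tenm3-Aga, Gm32544 at chr4:47638828-47639127 on the minus strand in Sec61b-Nr4a3, Gm36667 at chr5:133598377-133598676 on the minus strand in Auts2-Castor2, and Gm31495 at chr16:78154891-78155190 on the minus strand in Usp25-Cxadr. The last 4 hold 3, 6, 3 and 3 CpGs.

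The deserts were slightly more methylated in old than in young cells. Averaged over the 13392 windows, the level was 69.2% in old and 68.5% in young cells, a difference of 0.67 percentage points (SD over windows 1.06). The windows of both ages kept the same ranking of levels along the deserts, with a Spearman correlation of 0.98 over windows, given as a description because both values come from the same positions. Of the windows 75.4% were higher in old, against 76.2% over all 35676 windows looked at. The direction was nearly uniform among deserts: 581 of 585 had a higher mean in old cells and 4 a lower one, with a median difference of 0.63 points and an SD over deserts of 0.26. In 14 of the 584 deserts with at least 10 windows, every window was higher in old.

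The difference was present on each of the 19 chromosomes. It was smallest on chromosome 7, at 0.52 points, and largest on chromosome 6, at 0.78 points (SD over chromosomes 0.077). Windows inside protein-coding genes stood at 68.9% in old and 68.4% in young cells, a difference of 0.56 points, and windows of shorter intergenic intervals, of 50 to 500 kb, at 67.6% and 67.2%, a difference of 0.45 points. The desert difference exceeded that inside genes by 0.11 points on average, with the same sign on 17 of 19 chromosomes (-0.023 to 0.20 points); chromosomes 13 and 18 went the other way. It exceeded that of shorter intergenic intervals on 19 of 19 chromosomes, by 0.063 to 0.33 points. The share of windows higher in old did not follow this order, at 75.4% in deserts, 72.8% in shorter intervals and 79.3% inside genes.

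**Figure D1:**
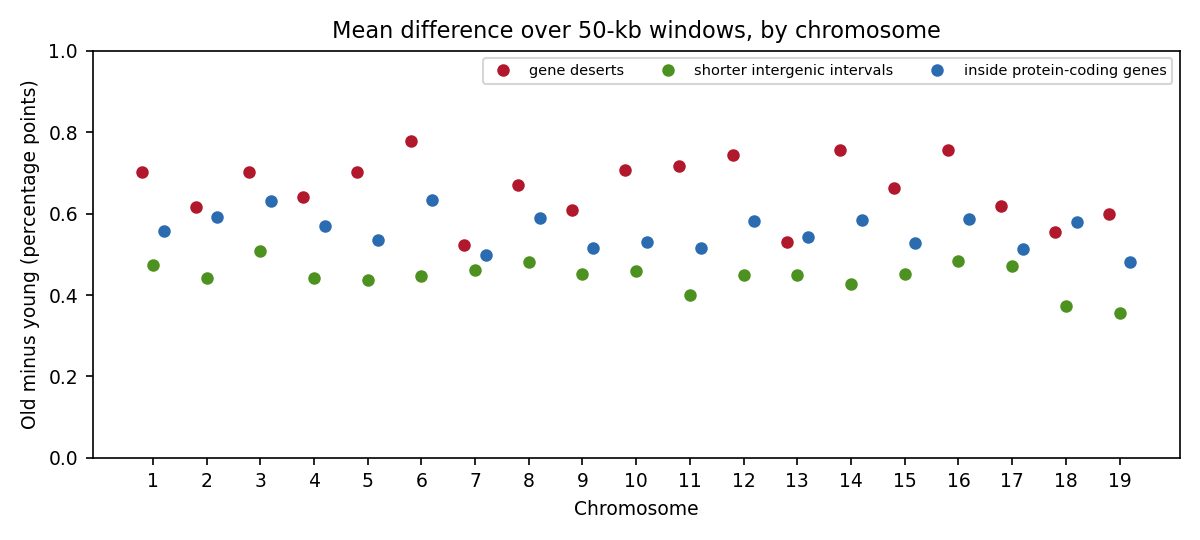
Mean old minus young difference in percentage points (vertical axis) for 50-kb windows of gene deserts, of shorter intergenic intervals and inside protein-coding genes, 1 point per kind on each of chromosomes 1 to 19. Desert points lie between 0.52 (chromosome 7) and 0.78 (chromosome 6), above the shorter intergenic intervals on every chromosome and above genes on 17 of 19.

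Deserts held fewer listed positions than other sequence, and the difference went with that density. The density was 7.92 positions per kb in deserts, 12.9 in shorter intergenic intervals and 14.2 inside genes. Desert windows with under 4 positions per kb were 0.79 points higher in old, those with 6 to 8 per kb 0.67 points, those with 12 to 20 per kb 0.51 points and those with 20 or more 0.44 points. Inside genes the values at the same densities were 0.79, 0.64, 0.49 and 0.48 points. Weighted to the density of the deserts, the difference was 0.67 points in deserts, 0.68 inside genes and 0.51 in shorter intergenic intervals. Deserts exceeded genes on 7 of 19 chromosomes between 4 and 6 positions per kb (mean -0.040 points, SD over chromosomes 0.13), on 12 between 6 and 8 (0.017, SD 0.12), on 13 between 8 and 12 (0.029, SD 0.076) and on 11 between 12 and 20 (0.015, SD 0.081). These means lay within the SD over chromosomes, which describes the spread of single chromosomes and does not test the mean. Deserts exceeded shorter intergenic intervals on 18, 16, 17 and 17 of 19 chromosomes in the same bins, by 0.29 points (SD 0.31), 0.14 (SD 0.14), 0.12 (SD 0.071) and 0.094 (SD 0.074).

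**Figure D2:**
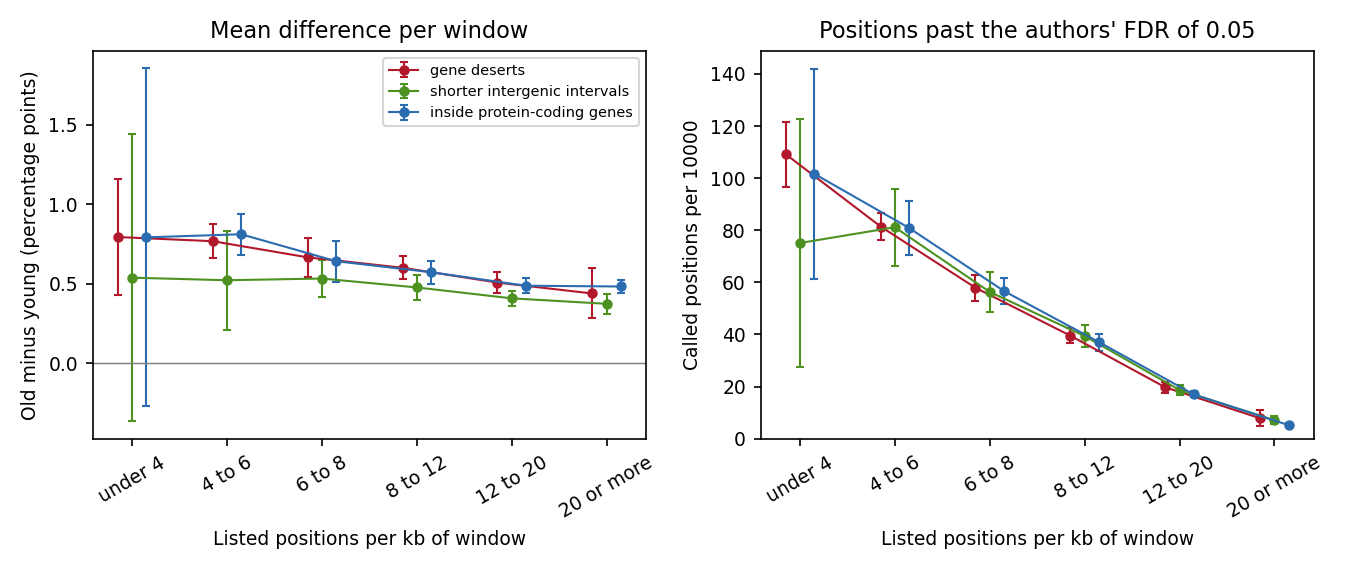
Left, mean old minus young difference in percentage points; right, positions past the authors' FDR of 0.05 per 10000 listed positions; both against listed positions per kb of the window, for the 3 kinds of window, with bars showing the SD over 19 chromosomes. Desert differences run from 0.79 points under 4 positions per kb to 0.44 points at 20 or more, close to the values inside genes, and the 3 lines of called positions lie near each other from 4 positions per kb upward.

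Sparse windows also scattered more. The SD of the difference over desert windows was 1.53 points with 50 to 200 positions and 0.55 points with 800 to 1600. Differences of at least 2 points in favour of old cells occurred in 1360 desert windows (10.2%, against 6.02% over all windows), and of at least 2 points in favour of young cells in 114 (0.851%, against 0.519%). Among the sparsest desert windows these shares were 21.6% and 3.90%, and with 800 to 1600 positions they were 0.604% and 0. The part of the smaller number of positions in these shares was not tested.

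The difference was wider far from genes and in long deserts. Windows centred within 50 kb of a flanking gene stood at 67.3% in old and 66.7% in young cells, a difference of 0.61 points, at 10.7 positions per kb. Those more than 1000 kb from both flanking genes stood at 69.1% and 68.2%, a difference of 0.82 points, at 5.30 positions per kb. Deserts of 0.5 to 1 Mb averaged 0.58 points over windows, those of 1 to 2 Mb 0.66 points and those of 2 Mb or more 0.79 points, with 9.98, 7.70 and 5.89 positions per kb. Distance, length and density moved together and cannot be told apart here.

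Most of the longest deserts lie beside genes of neuronal cell-surface proteins. Pcdh20-Pcdh9, 4542 kb between protocadherin genes on chromosome 14, stood at 70.2% in old and 69.2% in young cells, and 71 of its 90 windows were higher in old. Celf4-Pik3c3, 4511 kb between an RNA-binding protein gene and a lipid kinase gene on chromosome 18, stood at 68.4% and 67.8%, with 68 of 90 windows higher in old. Olfm4-Pcdh17 stood at 70.8% and 70.03% with 61 of 88 windows higher, and Cntnap5b-Cdh20, between a contactin-associated and a cadherin gene, at 67.7% and 66.9% with 65 of 85. Tenm3-Aga, beside a teneurin gene whose product guides synapse partners, stood at 68.6% and 67.6%, and 66 of 79 windows were higher in old. The 5 differences ran from 0.60 points in Celf4-Pik3c3 to 1.06 points in Pcdh20-Pcdh9.

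The 5 widest differences belonged to deserts of 568 to 1470 kb. They held 5.37 to 7.25 positions per kb, against a median of 7.48 over all deserts. Gm52259-Cadm2, beside the gene of a synaptic adhesion molecule on chromosome 16, stood at 73.3% in old and 71.7% in young cells, a difference of 1.55 points, and all 14 windows were higher in old, by 0.42 to 3.24 points. Fbxo33-Gm32936 stood at 69.1% and 67.7% (1.39 points, 20 of 21 windows higher) and Spock3-Sgo2b at 68.7% and 67.4% (1.35 points, 11 of 11). Atxn7l3b-Trhde and Slc6a15-Gm21293, both on chromosome 10, differed by 1.23 and 1.22 points. These 5 were taken as the extremes of the ranking, so their size is a description.

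At the other end, 4 deserts were lower in old. Fbxo8-Hand2, beside the gene of a transcription factor that patterns heart and limb, stood at 67.1% in old and 67.3% in young cells, a difference of -0.23 points, with 5 of 14 windows higher in old. Dmac1-Ptprd differed by -0.098, Nell1-Ano5 by -0.052 and Tet2-Cxxc4, between genes of a DNA demethylase and of a CXXC-domain protein, by -0.045 points. Ubash3b-Gm40514, the home of Mir125b-1, differed by 0.0038 points with 8 of 14 windows higher. Other settings turned the sign of each of these values except that of Fbxo8-Hand2, which was -0.044 points with windows of 10 kb and -0.098 points without positions at the most common dispersion.

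**Figure D3:**
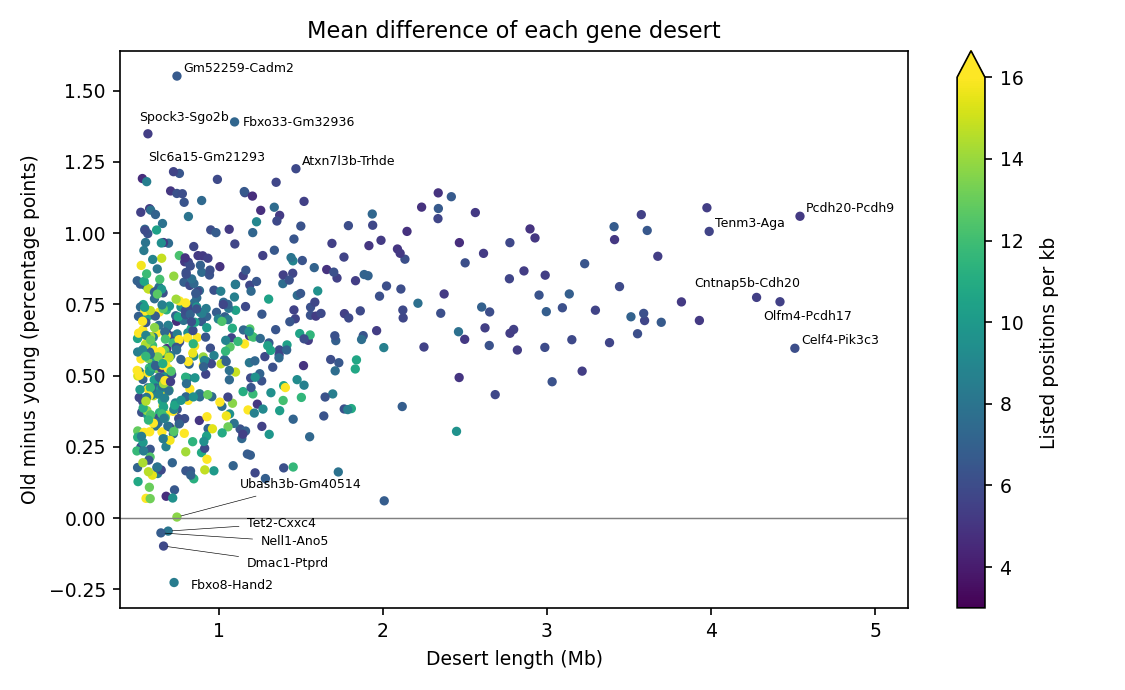
Old minus young difference of each of the 585 deserts in percentage points against its length in Mb, coloured by listed positions per kb, with the 5 longest, 5 highest and 5 lowest deserts named. Nearly all lie above 0, from -0.23 points in Fbxo8-Hand2 to 1.55 points in Gm52259-Cadm2, and the 4 below 0 are all under 1 Mb.

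Deserts differed far more in level than in age. Among those with at least 10 windows the mean over both ages ran from 58.6% to 80.9%, with a median of 68.7%. The lowest was Rragc-Pou3f1, beside a neural POU factor gene, at 58.8% in old and 58.4% in young cells and 21.5 positions per kb. Snrpn-Gm51483, in the imprinted Prader-Willi region, followed at 59.2% and 58.2%, and Pax1-Foxa2, between genes of a skeletal and an endodermal regulator, at 59.2% and 58.9%. The highest was Gulp1-Col3a1, beside a fibrillar collagen gene, at 81.1% and 80.6%, then Rgmb-Gm51425 at 79.3% and 79.1% and Gm12695-Nfia at 78.5% and 78.1%. Among deserts with V segments, that of the antibody heavy chain region (Adam6a-Zfp386, 121 segments) stood at 62.5% in old and 61.6% in young cells, and that of a T-cell receptor region (Gm36448-Dad1, 118 segments) at 68.9% and 68.4%.

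A small set of desert windows was poorly methylated at both ages. There were 52 windows under 50% over both ages, in 46 deserts, at 43.0% in old and 42.5% in young cells; 41 of them were higher in old. Of these windows 31 were the first of their desert, as were 4.37% of all desert windows, and 19 lay in deserts flanked by a gene on a list of developmental transcription factor families, as did 10.8% of all. Windows were cut from the desert start, so only the first flanking gene has a window that directly adjoins it. The lowest lay 50 kb from Mef2c, the gene of a factor of muscle and brain, in Mef2c-Tmem161b at chr13:83717080-83767079, which holds Mir9-2, Gm51268 and C130071C03Rik. It stood at 20.1% in old and 19.4% in young cells over 1292 positions, none past the authors' FDR. The second, in Ythdf3-Cypt12 at chr3:17767038-17817037, holds Mir124a-2, a microRNA of neurons, and stood at 23.7% and 22.9%. The third adjoined Pou3f2, another neural POU factor gene, at 26.4% and 25.7%. Next came the window beside Zic4, a gene of brain development, at 26.9% and 25.9%.

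**Figure D4:**
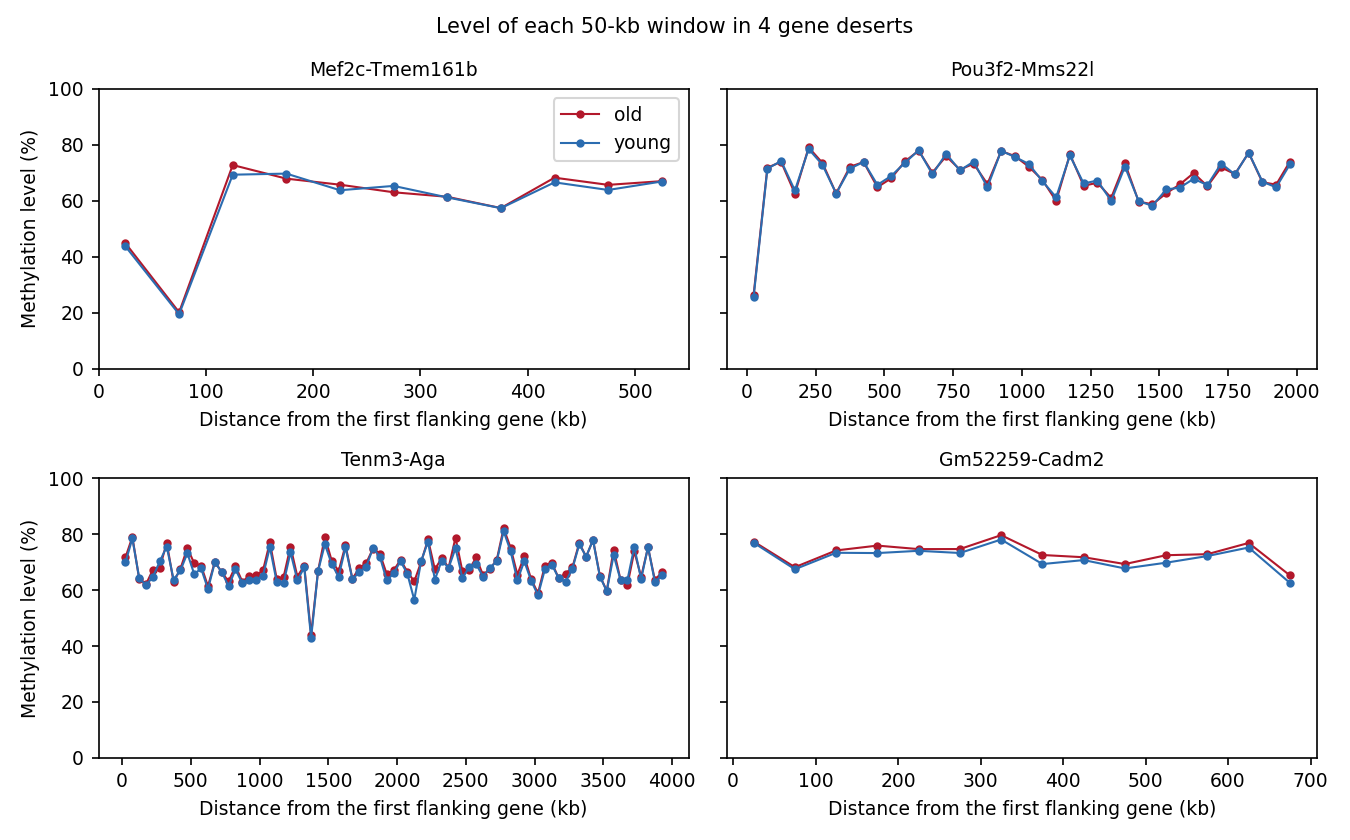
Methylation level in percent of each 50-kb window, old and young, against the distance from the first flanking gene in kb, in 4 deserts. The windows of Mef2c-Tmem161b and Pou3f2-Mms22l near their regulator gene fall to 20.1% and 26.4% in old and 19.4% and 25.7% in young cells, while the line for old lies above that for young in all 14 windows of Gm52259-Cadm2.

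Deserts beside developmental transcription factors and deserts beside neuronal adhesion genes were described by lists of gene families. The 74 deserts with a flanking transcription factor had 10.5 positions per kb in the median, 73 were higher in old and the median difference was 0.56 points, at median levels of 68.4% in old and 68.0% in young cells. The 86 with a neuronal adhesion gene had 6.11 positions per kb, all 86 were higher in old and the median difference was 0.72 points, at 68.6% and 67.7%. Over all 585 deserts the median difference was 0.63 points and the median density 7.48 per kb. Windows under 50% made up 1.32% of the first group's windows, 0.186% of the second's and 0.388% of all. The groups share 1 desert, and no difference between them was tested.

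The windows with the widest gaps all had fewer positions per kb than the deserts had on average. Each window was also cut into 10 steps of 5 kb. The highest, in the middle of Tenm3-Aga at chr8:51622825-51672824, stood at 63.1% in old and 56.5% in young cells over 147 positions, with 6 positions past the authors' FDR, all higher, and 8 of 10 steps higher. One in Plcl1-Hsfy2, at chr1:56054286-56104285, stood at 74.6% and 68.1%, and one in Plod2-Dipk2a, at chr9:93908429-93958428, at 75.5% and 69.4%. In each of these, 6 of 10 steps were higher and 1 short run of neighbouring positions leaned the same way. Without the 90 positions of its run the difference of 6.48 points in Plcl1-Hsfy2 was 2.05 points, and without the 56 positions of its run that of 6.08 points in Plod2-Dipk2a was 3.76 points. Those in Fat3-Chordc1 (67.5% and 61.9%) and Cntnap5b-Cdh20 (67.0% and 61.6%) followed. Lower in old were windows in Cdh2-Dsc3 (62.3% and 67.5%), between genes of classical and desmosomal cadherins, Hace1-Grik2 (61.6% and 66.6%), Zeb2-Acvr2a (64.5% and 68.6%), Gm15501-Tenm4 (55.6% and 59.3%) and Agbl1-Ntrk3 (53.4% and 56.9%). The Zeb2-Acvr2a window was lower in 2 of 10 steps only, which held 218 of its 382 positions, and the mean over its steps was 1.38 points higher in old. The most methylated windows, in Pex2-1700008P02Rik (86.2% and 86.1%), Cobl-Pom121l12 (86.3% and 85.7%) and Nmbr-Cited2 (86.6% and 85.0%), differed by 0.099 points in the first and by 1.57 points in the last.

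No desert window passed a test of its own. The test took 2 times the median of the authors' deposited p-values over the positions of a window, with Benjamini-Hochberg adjustment over all 35676 windows. It called 0 windows of any kind (0%), and 0 had an unadjusted p under 0.05. A small median needs small p-values at most positions of a window, and 0.479% of desert positions were under the authors' FDR of 0.05. The test could therefore hardly call a window of this length, and no conclusion about desert windows is drawn from it.

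Single positions passed the authors' test more often in deserts than elsewhere. By the authors' deposited FDR, 25396 desert positions were under 0.05, which is 0.479% of them, against 0.233% over all positions, 0.25% in shorter intergenic windows and 0.204% inside genes. Of the desert calls 14341 were higher and 11055 lower in old, where 0.13% and 0.103% of all positions were called in these directions. Their median differences were 20.04 and -19.98 points. At equal density the excess was small: weighted to the density of the deserts there were 60.5 called positions per 10000 in deserts, 59.7 inside genes and 58.9 in shorter intervals. This weighting counts windows equally rather than positions, so its desert rate differs from the 0.479% of positions given above. Between 4 and 6 positions per kb the rates were 81.4 per 10000 in deserts and 80.9 inside genes. They were 19.7 and 16.9 between 12 and 20, and 7.80 and 5.17 at 20 or more. Deserts exceeded genes on 10 of 19 chromosomes between 4 and 6 per kb and on 15 between 12 and 20, with no test. In 91.5% of the desert calls at least 1 age had its most common dispersion (0.0434 in old, 0.0438 in young cells), as did 27.8% of all desert positions, 91.2% of the calls in shorter intergenic windows and 92.4% of those inside genes. In deserts 2167 calls remained without such positions, 1294 higher and 873 lower in old. That left 5.66 called positions per 10000 in deserts, against 2.94 in shorter intergenic windows and 2.04 inside genes. These rates are not weighted to density, so they do not show an excess of deserts at equal density.

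The calls seldom covered both strands of a CpG. The opposite cytosine was listed for 95.1% of the called desert positions and was itself called for 2.65%, and the authors' p of listed partners had a median of 0.0946. CpGs called on both strands numbered 337 in deserts, 211 higher and 126 lower in old. They are 0.0147% of the desert CpGs with both cytosines listed, against 0.00672% on chromosomes 1 to 19. Neither share is weighted to density. Between 4 and 6 positions per kb there were 113 of 448344 in deserts and 41 of 132716 inside genes. Between 8 and 12 there were 84 of 587049 and 61 of 629137, so the excess over genes was not present at every density. Klf4-Actl7b, between the gene of a pluripotency and differentiation factor and an actin-like gene, held 6 CpGs called on both strands, the most of any desert, all higher in old. Celf4-Pik3c3 held the most called positions, 226 of 27277, of which 111 were higher and 115 lower.

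One desert tile of 1 kb was called. The test was the same on 1201119 tiles with at least 10 positions, of which 8.33e-05% were called. The tile lies in Nxph1-Ndufa4, beside a neurexin ligand gene, at chr6:10786001-10787000, 1113 kb from Ndufa4. It stood at 43.6% in old and 78.0% in young cells, with a Benjamini-Hochberg adjusted p of 0.00109. The gap came from 11 positions at chr6:10786025-10786049, a stretch of 25 bases, at 39.8% in old and 91.7% in young cells. All 11 carry the same pair of levels in the authors' deposited table. None of these positions adjoins another listed one, so each CpG there was listed on 1 strand only. The other 5 positions of the tile stood at 51.8% and 47.8%. The 10 kb before it stood at 70.7% and 70.4% over 35 positions, and the 10 kb after it at 65.8% and 59.6% over 32.

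Without adjustment the p of 337 of 194507 desert tiles was under 0.05; 208 of these tiles were higher and 129 lower in old. That is 17.3 per 10000 desert tiles, against 8.78 per 10000 in the rest of chromosomes 1 to 19. Over all 1201119 tiles 0.0599% were under 0.05 and higher and 0.0418% under 0.05 and lower. Tiles at least 10 points higher in old made up 2.22% in deserts and 1.05% elsewhere, and tiles at least 10 points lower 1.39% and 0.680%. None of these shares is weighted to density or level, so they do not show an excess of deserts at equal density. Tiles under 20% over both ages made up 1.21% in deserts and 4.37% elsewhere. After the called tile the smallest p-values belonged to tiles in Cdh10-Cdh12 (96.5% in old and 75.2% in young cells), Cd109-Col12a1 (38.2% and 79.2%) and Klf4-Actl7b (79.3% and 53.6%), each with an adjusted p of 1 by the same test.

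Runs of neighbouring positions gave short stretches that leaned one way. A run needed at least 10 positions of 1 sign with an authors' deposited p under 0.01, spaced no more than 100 bases apart. Deserts held 37 of the 153 runs on chromosomes 1 to 19 (24.2%, beside 16.6% of the positions), in 37 deserts, 22 higher and 15 lower in old. Their median length was 117 bases, and 24 of them held no position past the authors' FDR. The run in Klf4-Actl7b, at chr4:55812955-55813248, stood at 75.7% in old and 42.7% in young cells, with 12 of 16 positions past the FDR. In Cdh10-Cdh12, at chr15:19774318-19774396, all 13 positions passed, at 96.5% and 75.2%. In Cd109-Col12a1, at chr9:79248662-79248770, 7 of 10 passed, at 26.3% and 75.6%. A run with 0 such positions lay 101 kb from Sox6, the gene of a regulator of muscle fibre type, at 49.0% and 25.04% (chr7:115369887-115370108). The run of 90 positions in Plcl1-Hsfy2 spans 634 bases, at 86.0% in old and 69.0% in young cells, and that of 56 positions in Plod2-Dipk2a 389 bases, at 84.9% and 66.8%. Neighbouring positions often carry equal levels, so the positions counted in a run are not independent observations. The search carries no adjusted p, so the runs only describe the data, and the ones named were picked with their values known.

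Most desert lncRNA promoters were methylated. Of 1721 desert lncRNA genes with a RefSeq promoter sequence, 804 held at least 6 listed positions in it. The median level was 64.1% in old and 63.1% in young cells; 132 (16.4%) stood under 20% over both ages and 445 over 60%. Outside deserts 37.1% of lncRNA promoters and 80.8% of protein-coding promoters stood under 20%. Of the 132, 19 lay within 5 kb of a flanking gene, against 9 of the 445. Among the least methylated were Crnde in Irx3-Irx5 (2.36% in old and 2.49% in young cells), Dio3os in Rtl1-Dio3 (2.61% and 2.53%), Dleu2 in Kcnrg-Dleu7 (3.62% and 3.54%) and C130071C03Rik, printed above (3.87% and 3.34%).

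The ages did not separate at these promoters: 410 were higher and 394 lower in old. Of the promoters 0 held a position past the authors' FDR of 0.05, which 0.233% of all positions passed. Such calls were also rare at promoters outside deserts, with a count of 1 over 5013 lncRNA promoters and 4 over 12978 protein-coding promoters. Among the 132 under 20%, 56 were higher and 76 lower, and among those over 60%, 252 were higher and 193 lower. The widest gaps were those of the printed Gm2516 (51.7% in old and 70.1% in young cells) and Gm32544 (25.9% and 43.5%), both lower, and of Gm36667 (72.4% and 54.7%) and Gm31495 (77.0% and 59.4%), both higher. These rest on 6 listed positions each, or 12 at Gm32544, whose smallest p in the authors' deposited table was 0.00439. The smallest p was 0.153 at Gm2516, 0.0982 at Gm36667 and 0.00103 at Gm31495.

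**Figure D5:**
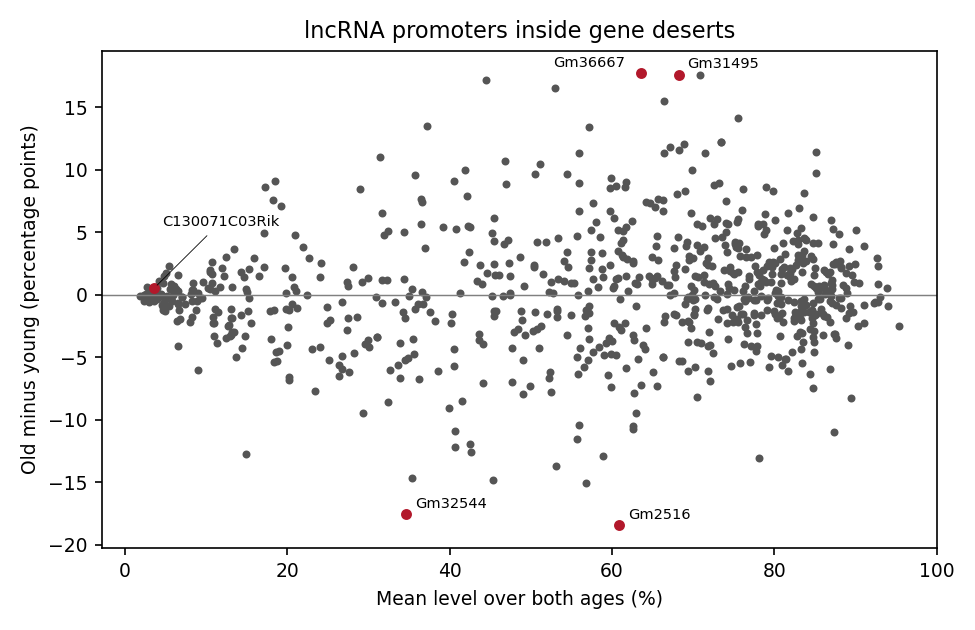
Old minus young difference in percentage points of the 804 lncRNA promoters inside deserts against their mean level over both ages in percent, with the 5 printed promoters in red. The SD of the differences is 2.66 points for promoters under 20%, where Gm41835 lies farthest from 0 at -12.8 points, and 4.40 points for those over 60%.

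MicroRNA hairpins in deserts were mostly methylated, too. Of 120 hairpins with a RefSeq sequence, 87 held at least 10 positions within 500 bases on each side. Their median level was 79.3% in old and 78.5% in young cells, 73 stood over 60% and 6 under 20%, and 64 were higher and 23 lower in old. The 6 low ones are those printed above. Mir1247 stood at 3.16% in old and 2.96% in young cells over 283 positions, and Mir137, a neuronal microRNA, at 5.08% and 3.87%. Mir125b-1, a homologue of the worm timing gene lin-4, stood at 5.62% and 7.10%. Mir9-2, which acts in neural progenitors, and the overlapping Gm51268 stood at 18.5% and 15.8%, and Mir1897 at 20.3% and 18.2%. None of the 6 held a position past the authors' FDR.

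Hairpins of the microRNA clusters are not independent, since some lie close enough to share positions. In Rtl1-Dio3, the desert of the imprinted Dlk1-Dio3 microRNA cluster, 42 hairpins were measured and 38 were higher in old, with a median difference of 2.39 points at median levels of 82.3% in old and 80.8% in young cells. Rtl1-Dio3 as a whole differed by 0.55 points, with 9 of 13 windows higher in old. Over the hairpins of all other deserts 26 were higher and 19 lower. The differences in Rtl1-Dio3 ran from -6.34 points at Mir667, with 24.8% in old and 31.2% in young cells, to 9.86 points at Mir341, with 74.7% and 64.8%. The 6 hairpins of the Mir17 to Mir92-1 cluster in Slitrk5-Gpc5, which drives cell growth, stood at 78.3% to 80.7% in old and 77.4% to 81.1% in young cells. The 50-kb window that holds them, at chr14:115033145-115083144, stood at 31.1% in old and 31.3% in young cells over 1214 positions. In Gm51483-Ndn, in the Prader-Willi region, 3 hairpins held at least 10 positions. Mir344-2 stood at 43.0% and 28.2% over 15 positions, Mir344g at 44.8% and 36.2% over 12 and Mir344b at 64.7% and 63.0% over 10. That desert as a whole differed by 0.40 points, with 13 of 24 windows higher in old. These clusters were chosen after their values were seen.

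The dispersion was slightly higher in old cells. Its mean over desert windows was 0.0474 in old and 0.0470 in young cells, with the same direction on 19 of 19 chromosomes and in 60.03% of windows. In shorter intergenic windows it was 0.0490 and 0.0485 and inside genes 0.0484 and 0.0480. The highest desert values lay in Ube3a-Snurf, at the imprinted Prader-Willi and Angelman locus, where 2 neighbouring windows had 0.0662 and 0.0654 in old and 0.0686 and 0.0615 in young cells. The widest rises were in Lcorl-Slit2 (0.0544 and 0.0467), Pot1a-Grm8 (0.0589 and 0.0513) and Hnf4g-Zfhx4 (0.0574 and 0.0499), and the widest falls in Stim2-Pcdh7 (0.0457 and 0.0530), Slc39a10-Tmeff2 (0.0491 and 0.0559) and Cox7c-Edil3 (0.0544 and 0.0608), each in 1 window, with no test.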

How the data were processed

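Whole-genome bisulfite libraries of 4 old and 4 young mice were grouped by the labelled age; nothing else was compared. Per the labels' protocols, each library was sequenced in pairs to between 115000000 and 200000000 reads; the depth per position is unknown. The submitters' processing notes name the tools Trim Galore, Bismark and edgeR, without a role, and the builds mm10 and GRCm38. The deposited levels are, per the file headers, a fraction for each age (mu), equal over neighbouring positions in many places (2.89 positions per stretch of equal values in deserts), so neighbours are not independent. The dispersion, phi, is deposited as another number for each age, with no definition in the sources. Each position also has the authors' own p-value and FDR for the comparison of the ages.

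Deposited positions count from 0: all 755884 that fall inside RefSeq promoter sequences lie on a CpG when counted so, and 55.3% when counted from 1. So 1 was added, and coordinates are 1-based. Protein-coding spans come from a table of RefSeq genes on GRCm38.p6, an assembly with the chromosome coordinates of mm10; 107 protein-coding rows on scaffolds were left out and 20558 kept. Levels were averaged over positions within a window, then over windows. Windows and tiles were tested with the median of their positions' authors' p, multiplied by 2, adjusted by Benjamini-Hochberg and called at 0.05; tiles of 1 kb needed at least 10 positions. The procedure was tested on simulated data with independent p-values, so that test does not cover neighbouring positions that share values. Python 3.11.15, numpy 2.4.6 and pandas 2.3.3 were used. Marker levels are over 1000 bases on each side of the less methylated gene end.

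Deserts were named by rule: the 5 longest, the 5 highest and 5 lowest by difference and the 3 highest and 3 lowest by level among those with at least 10 windows, and those with the called tile, the most called positions and the most CpGs called on both strands; for windows, the 5 highest and lowest by difference and the 3 by level. The deserts, gene lists and rules were chosen with earlier results of these data known. Values of some deserts and windows are not reported here.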

Additional observations from a re-analysis of the deposited data

How the results depend on the processing

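The desert difference of 0.67 points kept its sign under each of 12 other settings, from 0.62 points with positions weighted equally to 0.81 points in 2359 windows of intervals free of any gene, non-coding genes included. In those windows the excess over all windows inside genes was 0.25 points. This excess is not weighted to density, and windows inside genes with 4 to 6 positions per kb differed by 0.81 points. The share of windows higher in old was 82.9% with windows of 100 kb and 62.2% with windows of 10 kb. Called desert positions numbered 16716 at least 200 kb from flanking genes, 4620 in intervals free of any gene, 16914 at an FDR under 0.01 and 2166 in windows without positions at the most common dispersion. Tiles called numbered 0 with tiles of 5 kb and 2 with at least 6 positions. With windows of 10 kb 0 were called, and the unadjusted p of 2 was under 0.05. The cause of these shifts was not tested, except that fewer positions enter the smaller sets. Using all rows of the gene table, scaffolds included, was chosen after seeing the data and gave 0.67 points.

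Of 240 values of named deserts, 9 changed sign: Dmac1-Ptprd gave 0.016 with at least 200 positions per window, 0.11 with shorter last windows kept and 0.13 with windows of 10 kb; Nell1-Ano5 gave 0.091 with shorter last windows kept and 0.29 with windows of 10 kb; Tet2-Cxxc4 gave 0.017 with positions weighted equally, 0.035 with windows of 100 kb and 0.0070 without the most common dispersion; and Ubash3b-Gm40514 gave -0.043 with positions weighted equally.

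No paired analysis was possible because the table holds values per age only. For the same reason a coverage minimum and leaving out animals were not run, and depth limits every value by an unknown amount.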

Other observations

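Chromosome X lies outside the rule. Cut in the same way, it holds 54 deserts with 1015 windows, at 71.7% in old and 71.0% in young cells, a difference of 0.77 points (SD over windows 1.57). Of these windows 70.8% were higher in old, and they held 4.67 listed positions per kb.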
